A study of Rattus norvegicus with 9 samples.

Results

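The TAM receptors Tyro3, Axl and Mertk and their ligand Protein S (Pros1) were followed in demyelinated rat white matter over the weeks in which myelin is restored. The family has 5 listed members, and a probe was counted as theirs where the platform annotation gives it a member's symbol. Of these genes 4 had a probe, with 5 probes in all (2 for Axl), among 7574 named genes and 10552 probes of the authors' normalized table. Gas6, the other ligand, has no probe among those named here and was not analysed here.

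All groups were lesions. Sprague Dawley rats, 12 weeks old at lesioning, received 0.1% ethidium bromide, a DNA-binding toxin that kills the glia it reaches, into the caudal cerebellar peduncle, one of the fibre tracts that join cerebellum and brainstem. The lesioned tracts were cut from frozen brain by laser capture at 5, 14 or 28 days post lesion (dpl), and RNA from 3 samples per time point was hybridised to Illumina arrays, 9 in all. The series contains no unlesioned tissue among the samples used here, so each change is between lesion ages. The design text calls the 3 samples of a time point biological replicates without saying how many animals gave them, so p-values reflect the variation among these arrays and no other.

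TAM receptors are receptor tyrosine kinases. They do not bind dying cells or myelin debris directly. Gas6 and Protein S carry a Gla domain, which vitamin K dependent carboxylation lets bind phosphatidylserine exposed on dying membranes, while their other end binds the receptor, so that the ligand bridges debris and phagocyte. In macrophages and microglia Mertk and Axl drive engulfment and dampen Toll-like receptor and interferon signalling, Mertk being the receptor of resting phagocytes and Axl the one induced by inflammation. Tyro3 is the member abundant in neurons and oligodendrocytes, and in mice it is needed for normal myelin thickness. Protein S activates Tyro3 and Mertk, whereas Axl responds to Gas6.

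The 3 stretches shown here lie just before the transcription starts of Tyro3, which rose throughout, and of Axl and Pros1, which were highest at 14 dpl. They are RefSeq sequences of rat build GRCr8, 250 bases each, 5′ to 3′ on the strand of the gene, with the GC box GGGCGG, read on both strands, in capitals. That of Tyro3 is chr3:127231653-127231902 on the plus strand, that of Axl chr1:90424010-90424259 on the minus strand, and that of Pros1 chr11:13677049-13677298 on the plus strand.
Tyro3: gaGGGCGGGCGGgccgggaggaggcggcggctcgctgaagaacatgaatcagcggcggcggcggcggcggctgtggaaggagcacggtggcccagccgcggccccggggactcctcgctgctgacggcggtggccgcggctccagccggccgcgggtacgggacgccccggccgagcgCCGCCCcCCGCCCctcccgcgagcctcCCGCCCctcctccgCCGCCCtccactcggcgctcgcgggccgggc
Axl: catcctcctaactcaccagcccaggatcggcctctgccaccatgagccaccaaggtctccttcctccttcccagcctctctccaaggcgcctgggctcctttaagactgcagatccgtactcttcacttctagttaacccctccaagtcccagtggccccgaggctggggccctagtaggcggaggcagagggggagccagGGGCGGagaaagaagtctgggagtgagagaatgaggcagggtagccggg
Pros1: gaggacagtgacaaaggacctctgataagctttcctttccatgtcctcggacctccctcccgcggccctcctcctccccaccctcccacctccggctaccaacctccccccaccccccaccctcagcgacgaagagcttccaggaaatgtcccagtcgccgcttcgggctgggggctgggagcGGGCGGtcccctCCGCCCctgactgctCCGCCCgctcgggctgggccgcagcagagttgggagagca
The Tyro3 stretch holds 6 GC boxes (overlapping letters counted in each) and is 82% G and C. The Pros1 stretch holds 3 with 68.4% G and C, the Axl stretch 1 with 61.6%, and that of Mertk, not shown, 2. Of 33469 rat promoters of this length 30.5% hold at least 1 GC box. The letters TGANTCA, a pattern looser than the AP-1 site since any middle base is allowed (6.34% of promoters), occur once, in the Tyro3 stretch, as TGAATCA. A STAT match (TTCNNNGAA, 7.67%) and a SOX match (ACAANG, 36.9%) occur once each, in the Pros1 stretch. E-box letters (CANNTG, 65.5% of promoters) and a TATA box (TATAAA, 12.9%) were found in none of the 4 stretches. These are matches of letters, searched on both strands.

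Values are the authors' normalized log2 values. Differences are later minus earlier time point from limma's fit over all probes, with the standard error (SE), n = 3 arrays per time point, and p-values adjusted by Benjamini-Hochberg over all 10552 probes with a threshold of 0.05. Background on this scale was estimated at 7.25 to 7.31 from the number of targets that each raw array failed to detect. The raw arrays detected 8727 to 9330 of 22226 targets. One array stood apart: the first principal component, with 70.1% of the variance, placed 5 dpl replicate 1 at -23.74 and both other arrays of that age at -37.7. Its score for neuron genes was 1.26, where replicates 2 and 3 had -0.45 and -0.22 (a score is the mean log2 value of a list relative to all 9 arrays). Of the markers of the tissue, the microglial gene Aif1 was at 14.52 ± 0.04 (SD, n = 3) at 5 dpl and the astrocyte gene Gfap rose to 14.63 ± 0.05 at 28 dpl, whereas the T cell gene Cd3e was at 7.45 ± 0.22 at 5 dpl and at 7.18, under the estimated background, at 14 and 28 dpl. The markers Tmem119, Cd68 and Pecam1 have no named probe here.

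**Figure D1:**
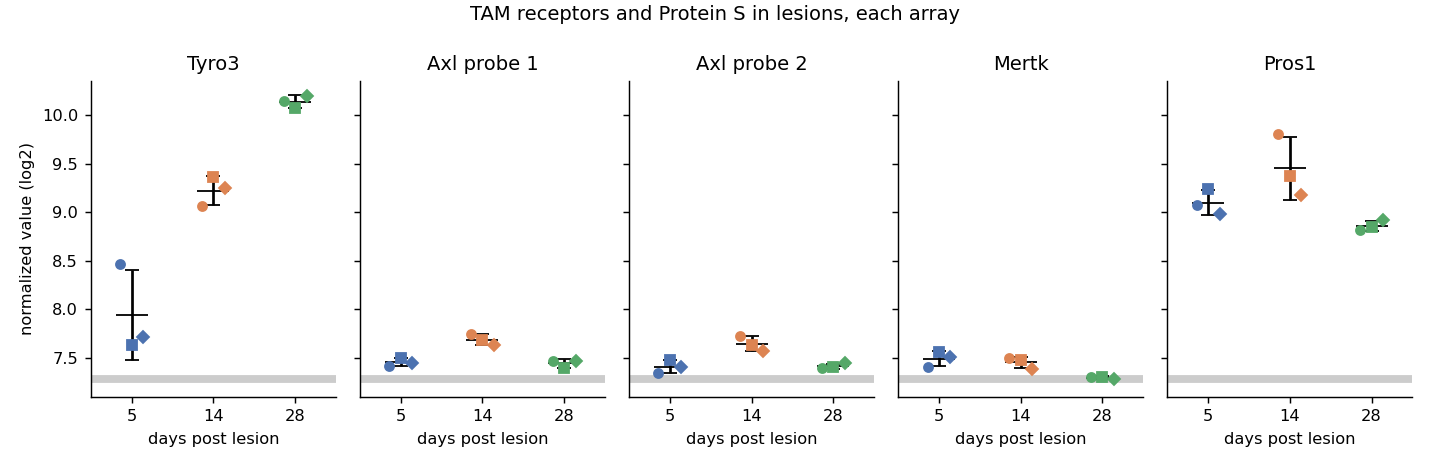
Normalized log2 values of each member probe on every array at 5, 14 and 28 dpl (circles, squares and diamonds are replicates 1, 2 and 3; the black bar is the mean and the whiskers the SD of 3 arrays; the grey band is the estimated background, 7.25 to 7.31). Tyro3 climbs from a mean of 7.94 to 10.14, Pros1 and both Axl probes are highest at 14 dpl, and Mertk ends in the background band.

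Tyro3 had the widest range of the 4 genes and was the member that rose at each step. Its values were 8.47, 7.63 and 7.71 at 5 dpl, 9.06, 9.36 and 9.24 at 14 dpl, and 10.15, 10.07 and 10.20 at 28 dpl. The 3 groups did not overlap, and the array that stood apart, 5 dpl replicate 1, was the highest of its group. From 5 to 14 dpl Tyro3 rose by 1.28 (SE 0.20, adjusted p = 0.00253), or 2.44-fold. Thereafter it rose by a further 0.92 (SE 0.20, adjusted p = 0.0169), or 1.89-fold. This later call ended when replicate 1 of 14 dpl (adjusted p = 0.0652), replicate 1 of 28 dpl (0.0533) or replicate 3 of 28 dpl (0.0602) was left out, within a range of 0.000537 to 0.0652 over all settings run. Over the whole interval the rise was 2.20 (SE 0.20, 95% interval 1.75 to 2.65, adjusted p = 6.44e-05), or 4.60-fold. Without 5 dpl replicate 1 the rise to 14 dpl was 1.55 and that to 28 dpl was 2.47, the highest values over the settings run. In such tissue samples, fewer cells of a type and less RNA per cell cannot be told apart.

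Of 20 measured genes of myelin and mature oligodendrocytes 15 rose from 5 to 14 dpl, 4 did not pass and 1 fell (Hapln2, by 0.71, adjusted p = 0.0339, named after its value had been seen). From 14 to 28 dpl 17 of the 20 rose and 0 fell, and over the whole interval all 20 rose, with a median of 2.43 against -0.03 over all probes. Summed on the linear scale, the list ranged from 24370 to 35480 over the 5 dpl arrays, from 51840 to 75750 over those of 14 dpl and from 124500 to 153200 over those of 28 dpl. Mbp, myelin basic protein, was at 7.46 ± 0.06, 9.25 ± 0.31 and 10.07 ± 0.12 (SD, n = 3), a rise of 2.61 over the interval (SE 0.14, adjusted p = 7.63e-06). Astrocyte genes rose in 8 of 11 cases and Schwann cell genes in 4 of 6 over the same interval, where 20.2% of all probes rose. Of 6 oligodendrocyte progenitor genes 4 rose and 1 fell, where 24.1% of all probes fell. The astrocyte count includes Aqp4, named after its value had been seen. Its probe did not exceed the highest background estimate on any array of 5 or 28 dpl. Of the 17 neuron genes 0 passed limma's test in either direction between 5 and 28 dpl, and 1 was higher at an unadjusted p under 0.05. From 5 to 14 dpl 0 passed, and 0 were higher and 2 lower at an unadjusted p under 0.05. The median there was -0.52 against -0.01 over all probes. From 14 to 28 dpl 0 passed, and 5 were higher and 0 lower at an unadjusted p under 0.05. The median in that step was 0.49 against -0.01 over all probes. The spread within 5 dpl, where replicate 1 stood apart, enters this test, so 0 calls do not show that neuron genes stayed level. The summed neuron list spanned 6618 to 24130 on the 5 dpl arrays, 5998 to 6754 on the 14 dpl arrays and 9834 to 11300 on the 28 dpl arrays. On 5 dpl replicate 1 the myelin score was -1.02 against -1.54 and -1.46, and the astrocyte score was -0.29 against -1.26 and -1.18. This array was thus higher in myelin, astrocyte and neuron genes and in Tyro3 alike. Which cells carried Tyro3 was not tested.

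**Figure D2:**
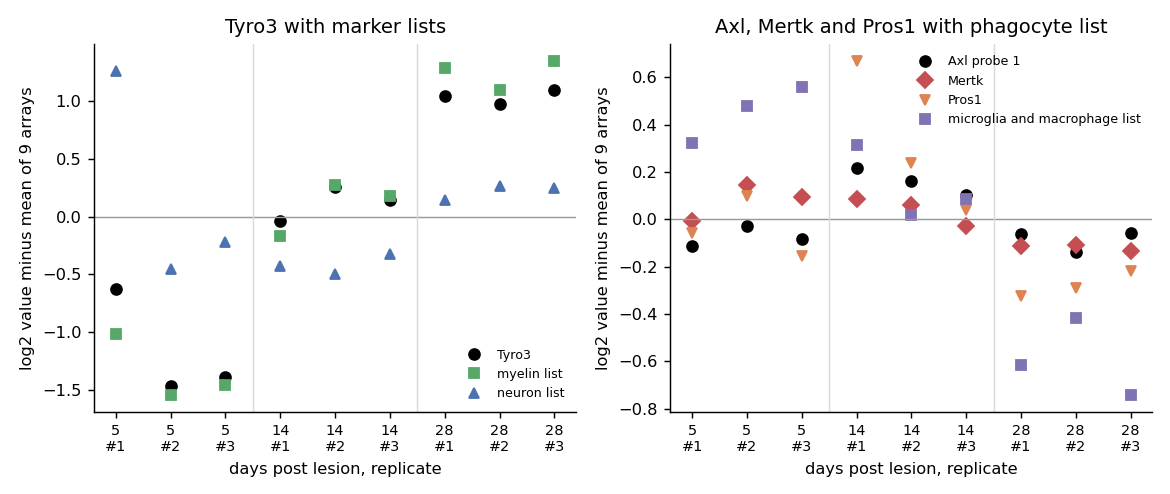
Log2 values minus the mean of the 9 arrays for each array, ordered by time point and replicate: Tyro3 with the mean scores of the myelin and neuron lists (left), and Axl, Mertk and Pros1 with that of the microglia and macrophage list (right). Tyro3 and the myelin score rise over the same arrays, while 5 dpl replicate 1 has a neuron score of 1.26; the microglia and macrophage score ends at -0.74 to -0.42 at 28 dpl.

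Axl was higher at 14 dpl than before or after, by a small amount that both of its probes showed. The brighter probe read 7.42, 7.50 and 7.45 at 5 dpl, 7.75, 7.69 and 7.63 at 14 dpl, and 7.47, 7.39 and 7.47 at 28 dpl. The second probe read 7.34, 7.48 and 7.41, then 7.73, 7.63 and 7.57, then 7.39, 7.40 and 7.44. On both probes every 14 dpl array lay above all others, and the values at 5 and 28 dpl overlapped. The probes differed by -0.01 to 0.07 on any array. All their values exceeded the highest background estimate, 7.31, but lay close to it, so the folds describe normalized values and not amounts of RNA. From 5 to 14 dpl Axl rose by 0.23 (SE 0.05, adjusted p = 0.0165) on the brighter probe and by 0.23 (SE 0.06, adjusted p = 0.0257) on the second, or 1.18-fold on each. It then fell by 0.25 (SE 0.05, adjusted p = 0.0188) and by 0.23 (SE 0.06, adjusted p = 0.0354). The net difference from 5 to 28 dpl was -0.01 (95% interval -0.13 to 0.11) and 0.00363 (-0.13 to 0.14).

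Both steps of Axl lay near the threshold. On the brighter probe the rise missed it when replicate 3 of 5 dpl (adjusted p = 0.0532), replicate 1 of 14 dpl (0.0515) or replicate 2 of 14 dpl (0.0571) was left out. The fall missed it when replicate 1 of 14 dpl (0.0722), replicate 2 of 14 dpl (0.0534) or replicate 2 of 28 dpl (0.0514) was left out. On the second probe the rise missed it in 6 of 18 alternatives, 4 of them without 1 array (replicates 1 and 3 of 5 dpl, replicates 1 and 2 of 14 dpl; adjusted p = 0.057 to 0.0751). Its fall missed it in 7 of 18, 6 of them without 1 array (replicate 3 of 5 dpl, replicates 1 and 2 of 14 dpl and each of 28 dpl; adjusted p = 0.0524 to 0.121). The direction was kept in each. The ranges over all settings were 0.00878 to 0.0571 and 0.0126 to 0.0722 on the brighter probe.

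Mertk declined towards the limit of detection. Its values were 7.41, 7.56 and 7.51 at 5 dpl, 7.50, 7.48 and 7.39 at 14 dpl, and 7.30, 7.31 and 7.28 at 28 dpl. The first 2 groups overlapped, and all 28 dpl arrays lay below every other array. From 5 to 28 dpl the difference was -0.20 (SE 0.06, 95% interval -0.33 to -0.06, adjusted p = 0.0234). At 28 dpl all 3 arrays were below the highest background estimate and above the lowest. With the highest taken as a floor, the means at 5 and 28 dpl were at least 1.13-fold apart. This bound leaves out the spread among arrays, which the interval includes. The call ended without 5 dpl replicate 2 (adjusted p = 0.0782), 5 dpl replicate 3 (0.0675), 28 dpl replicate 1 (0.0567) or 28 dpl replicate 3 (0.0657), with a range of 0.0108 to 0.0782. The single steps did not pass. From 5 to 14 dpl the difference was -0.04 (SE 0.06, adjusted p = 0.710). From 14 to 28 dpl it was -0.16 (95% interval -0.29 to -0.03, adjusted p = 0.101), with means at least 1.10-fold apart by the same floor.

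In the microglia and macrophage list, with 17 genes measured, 5 fell from 5 to 14 dpl, 11 from 14 to 28 dpl and 14 over the whole interval, and 0 rose in any of these comparisons. Over all probes 10.1%, 7.48% and 24.1% fell in the same comparisons. The summed level of the list was 116900 to 121900 among the 5 dpl arrays, 97880 to 114600 among the 14 dpl arrays and 53050 to 75060 among the 28 dpl arrays. Between 5 and 14 dpl, when Axl rose, 1 of 5 homeostatic microglia genes rose (Olfml3, by 0.52, adjusted p = 0.0199), against 10.7% of all probes. Later, when Axl fell, the other 4 fell, while Olfml3 was still up by 0.47 (adjusted p = 0.0146) at 28 against 5 dpl. In the list of infiltrating macrophage genes 6 of 11 fell from 5 to 14 dpl. From 14 to 28 dpl, where 7.48% of all probes fell and 7.49% rose, 1 of the 11 fell and 2 rose. Those that rose were Chi3l1, by 1.71 (adjusted p = 0.00873), and the calcium-binding protein S100a4, by 0.97 (adjusted p = 0.00746), and both were also higher at 28 than at 5 dpl. These 3 genes were named after their values had been seen. P2ry12, a purine receptor of resting microglia, went from 9.55 to 9.88, a step that did not pass (limma adjusted p = 0.0838). It then fell to 8.58 (adjusted p = 0.000584). The part of phagocyte number in the values of Axl and Mertk was not tested.

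Pros1, the ligand measured, was highest on average at 14 dpl and lowest at 28 dpl. It read 9.08, 9.24 and 8.98 at 5 dpl, 9.81, 9.37 and 9.17 at 14 dpl, and 8.81, 8.85 and 8.92 at 28 dpl. The 14 dpl arrays were widely spread and the lowest of them overlapped the 5 dpl arrays, while all 28 dpl arrays lay below the rest. Pros1 fell by 0.59 (SE 0.14, adjusted p = 0.0273) from 14 to 28 dpl, a 28 dpl level 0.663 of that at 14 dpl. That call ended without 14 dpl replicate 2 (adjusted p = 0.0542) or 28 dpl replicate 1 (0.0823), 2 (0.0659) or 3 (0.0678), within a range of 0.0175 to 0.0823. The difference from 5 to 14 dpl, 0.35 (SE 0.14, adjusted p = 0.124), did not pass, and passed without 14 dpl replicate 3 (difference 0.49, adjusted p = 0.0476; range 0.0476 to 0.289). From 5 to 28 dpl the difference was -0.24 (SE 0.14, 95% interval -0.57 to 0.09, adjusted p = 0.214). Its arrays did not overlap in that comparison, as was true of 53.8% of all probes.

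**Figure D3:**
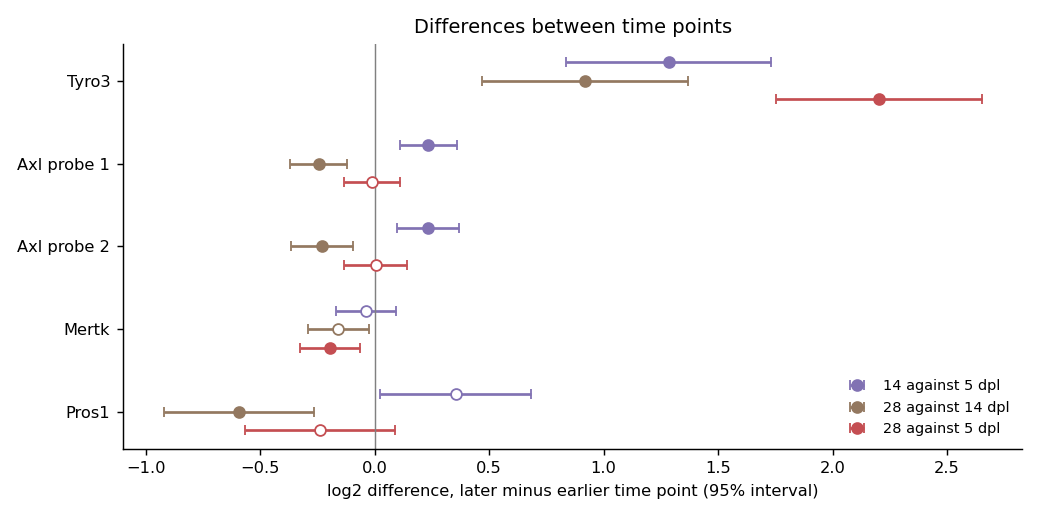
Log2 differences between time points (horizontal axis, later minus earlier) for each member probe with limma's 95% interval; filled points have an adjusted p under 0.05 and open points do not. Tyro3 is above 0 in all 3 comparisons, both Axl probes and Pros1 change side after 14 dpl, and Mertk lies below 0.

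Set against all probes, 2 of the 4 genes were called from 5 to 14 dpl (Tyro3 and Axl, both higher), where 20.8% of probes were called, 10.7% higher and 10.1% lower. In the step from 14 to 28 dpl 3 of 4 were called (Tyro3 higher, Axl and Pros1 lower), with 15.0% of probes called, 7.49% higher and 7.48% lower. Between 5 and 28 dpl 2 of 4 were called (Tyro3 higher, Mertk lower), with 44.3% of probes called, 20.2% higher and 24.1% lower. Arrays of the 2 time points did not overlap for 2 of the 4 genes in the first step (38.1% of all probes), for 4 of 4 in the second (38.8%) and for 3 of 4 over the whole interval (53.8%).

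Whether the members followed different courses was tested on the difference between their log2 values on each array. All 6 pairs of genes were compared with an exact permutation test of the F statistic over 1680 assignments of arrays to time points, 2-sided, where 0.00357 is the smallest p possible. Axl minus Tyro3 moved from a mean of -0.48 at 5 dpl to -1.53 at 14 dpl and -2.70 at 28 dpl (exact p = 0.00357, adjusted p = 0.00714). Mertk minus Tyro3 moved from -0.45 to -1.77, and at 28 dpl, where Mertk was not above the highest background estimate, it was at most -2.83 with Mertk set to that estimate (the same p and adjusted p with and without this floor). Tyro3 minus Pros1 moved from -1.16 to -0.23 and 1.28 (exact p = 0.00714, adjusted p = 0.0107). The mean differences shifted towards Tyro3 at both steps; the time points did not overlap for Axl or Mertk, while those of 5 and 14 dpl overlapped for Pros1.

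Axl minus Mertk lay between -0.06 and 0.01 at 5 dpl and between 0.21 and 0.25 at 14 dpl, where both were above background, and averaged at least 0.13 at 28 dpl with Mertk at the floor (exact p = 0.00357, adjusted p = 0.00714, with and without the floor). Since Mertk at 28 dpl has only this bound, the size of the later change in this difference is not known. Mertk minus Pros1 gave an exact p = 0.0286 (adjusted p = 0.0343; 0.0143 and 0.0171 with the floor), which, without the floor, missed the threshold without any 1 of the arrays other than 14 dpl replicate 2 or 3 (adjusted p = 0.0514 to 0.09). Axl and Pros1, both highest at 14 dpl, did not pass (exact p = 0.1, adjusted p = 0.1), and passed without 14 dpl replicate 3 (exact p = 0.0107, adjusted p = 0.0129). With medians in place of F 0 of 6 pairs passed. Many assignments tie on that statistic, even with fully separated groups, so its p cannot fall below 0.0714. No pair could have passed, and the median setting cannot show whether courses differ.

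The genes whose values followed each member most closely over the 9 arrays, among 6871 candidates, are given as a description. Arrays share their time point, so a high correlation mainly says that the course over time was alike. For Tyro3 they were Saraf, a regulator of store-operated calcium entry (Pearson r = 0.995), Thtpa, which hydrolyses thiamine triphosphate (0.995), and Hdac11, a histone deacetylase (0.995). Hdac11 went from 9.31 to 10.89 and 12.21. For Axl they were Ltc4s, leukotriene C4 synthase (0.972), Fitm1 (0.965) and Lrrc10 (0.964). Ltc4s went from 7.35 to 8.01 and back to 7.36, whereas Fitm1 reached only 7.34 at its highest. For Mertk they were Crtap, a collagen-modifying protein (0.990), Klhl6 (0.983) and Gpalpp1 (0.975). For Pros1 they were Kcnj5, a potassium channel subunit (0.971), Calhm2 (0.958) and Zmat5 (0.952).

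Genes that make the ligands functional, shed the receptors or carry their signal were measured in 14 of 30 cases, and they moved in both directions. From 5 to 14 dpl 3 rose and 2 fell, where 10.7% of all probes rose and 10.1% fell. Vkorc1, the reductase that recycles vitamin K, rose by 0.61 (SE 0.10, adjusted p = 0.00331) from a mean of 10.50 to 11.11, while its paralogue Vkorc1l1 fell by 0.58 (SE 0.10, adjusted p = 0.00559) from 9.52 to 8.95. Nck2, an adaptor protein, rose by 0.92 (SE 0.14, adjusted p = 0.00219). The other 2 called were Adam17, a protease that sheds Mertk, which rose by 0.61 (adjusted p = 0.0331), and Plcg2, a phospholipase of leukocytes, which fell by 0.47 (adjusted p = 0.0295). These 2 are named after their values had been seen. Leaving out replicate 2 of either age, or replicate 3 of 14 dpl, lowered the count from 5 to 3.

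From 14 to 28 dpl 1 of the 14 rose and 0 fell with limma, where 2 were higher and 2 lower at an unadjusted p under 0.05. The share that rose was near that of all probes, of which 7.49% rose and 7.48% fell. The gene that rose was Nqo1, a quinone reductase, by 0.89 (SE 0.16, adjusted p = 0.00845). A second gene passed when replicate 1 of 5 dpl, replicate 3 of 14 dpl or replicate 2 of 28 dpl was left out. Over the whole interval 5 rose and 4 fell, where 20.2% of all probes rose and 24.1% fell. The median was 0.07 against -0.03 over all probes. Plcg2 fell by 0.88 (SE 0.12, adjusted p = 0.00064) and Vkorc1l1 fell by 0.72 (SE 0.10, adjusted p = 0.000685), while Nck2 was up by 1.00 (SE 0.14, adjusted p = 0.000553). Ggcx, the carboxylase that modifies the ligands, differed by 0.17 (adjusted p = 0.369). Lgals3, galectin-3, a reported Mertk ligand that is also on the infiltrating macrophage list, was at 14.59, 14.54 and 14.57 and differed by -0.02 (adjusted p = 0.861). Both were named after their values had been seen.

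Genes on the list of other phosphatidylserine recognition and engulfment fell more often than they rose. That list also holds Sirpa and Cd47, which restrain uptake, and Anxa5, which can mask phosphatidylserine. Its counts are therefore not of uptake genes alone. Sirpa, named after its value had been seen, was among those that fell from 5 to 28 dpl (by 0.56, limma adjusted p = 0.017). Of 36 listed genes 21 were measured. From 5 to 14 dpl 5 fell and 1 rose, where 10.1% of all probes fell and 10.7% rose. The median was -0.20 against -0.01 over all probes. Cd36, a scavenger receptor, fell by 2.49 (SE 0.18, adjusted p = 0.000151) from 10.71 to 8.22. Scarb1, a lipoprotein receptor, fell by 1.00 (SE 0.13, adjusted p = 0.00109), and Anxa5, a phosphatidylserine-binding annexin, fell by 0.73 (SE 0.13, adjusted p = 0.00488).

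In the second step 5 of the 21 fell and 1 rose, where 7.48% of all probes fell and 7.49% rose. Rac2, a small GTPase of blood-derived cells, fell by 1.08 (SE 0.17, adjusted p = 0.0047). Rac1, its widely expressed relative, fell by 0.52 (SE 0.12, adjusted p = 0.0222) and Tyrobp, the adaptor of Trem2, fell by 0.70 (SE 0.16, adjusted p = 0.0243). Both calls ended without 14 dpl replicate 1 and without 28 dpl replicate 1 or 3, that of Rac1 also without 14 dpl replicate 3 and that of Tyrobp without 14 dpl replicate 2 (adjusted p = 0.0584 to 0.087). The count of 6 fell to 2 without 14 dpl replicate 1, to 3 without 14 dpl replicate 3 and to 1 without 28 dpl replicate 1 or 3.

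From 5 to 28 dpl 11 fell and 3 rose, with a median of -0.37, where 24.1% of all probes fell and 20.2% rose. Cd36 fell by 3.16 (SE 0.18, adjusted p = 8.76e-06), or 8.97-fold, Rac2 fell by 1.50 (SE 0.17, adjusted p = 0.000182) and Scarb1 fell by 1.26 (SE 0.13, adjusted p = 0.000114). The 3 that rose, named after their values had been seen, were the engulfment adaptor Gulp1 by 1.17 (adjusted p = 0.00225), the bridging protein Mfge8 by 0.34 (adjusted p = 0.0434) and Elmo1, a Rac activator subunit, by 0.15 (adjusted p = 0.0334). Microglia and macrophage markers, which share Tyrobp and Trem2 with the uptake list, fell in 5, 11 and 14 of 17 cases over the 3 comparisons in the order given, and their part in these changes was not tested. Mfge8 links phosphatidylserine to integrins as the TAM ligands link it to their receptors. It was at 10.65 at 5 dpl and 10.98 at 28 dpl.

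**Figure D4:**
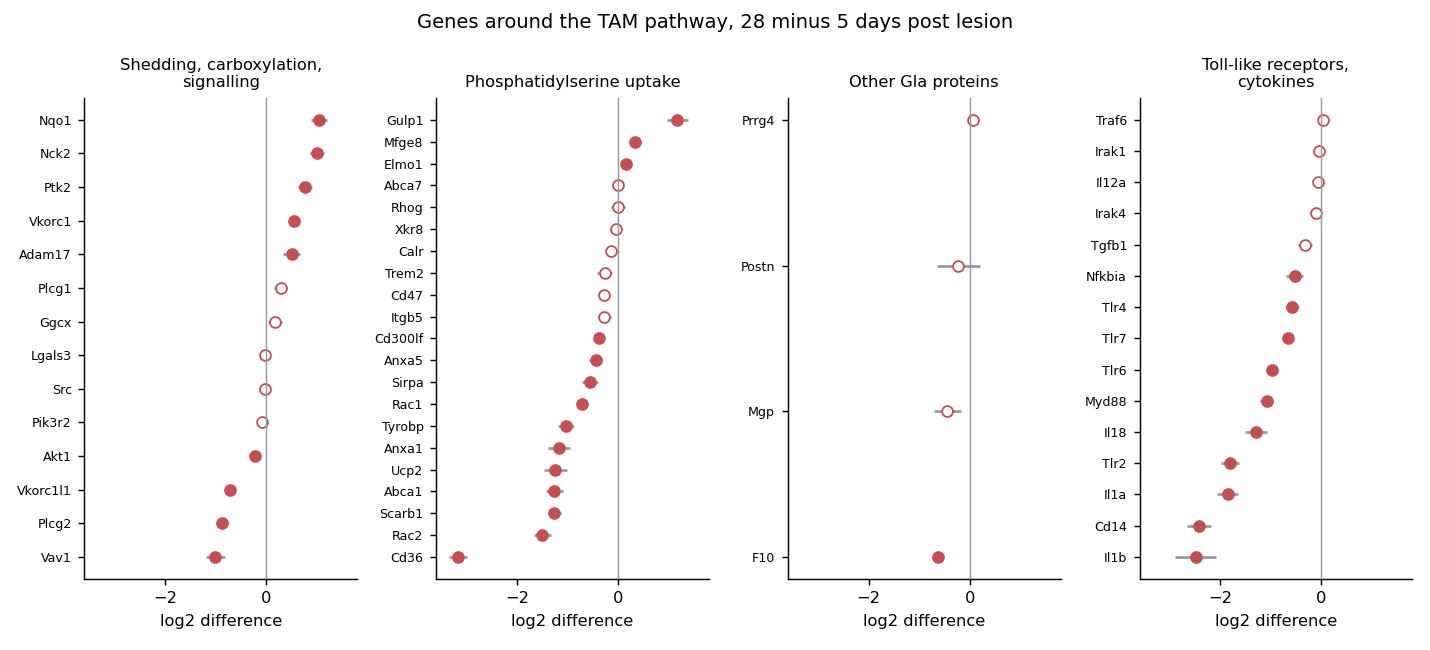
Log2 difference, 28 minus 5 dpl (horizontal axis), of every measured gene in the 4 pathway lists, with limma's SE as bars; filled points have an adjusted p under 0.05. Genes of shedding, carboxylation and signalling lie on both sides of 0, whereas the 10 called genes among Toll-like receptors and cytokines all lie below it.

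Of the other vitamin K dependent proteins 4 of 14 were measured. From 5 to 14 dpl 0 of them were called by limma, against 20.8% of all probes, and at an unadjusted p under 0.05 the number was also 0. F10, coagulation factor X, fell by 0.76 (SE 0.12, adjusted p = 0.00596) from 14 to 28 dpl, from 8.45 to 7.69, and fell by 0.63 over the whole interval. Mgp, matrix Gla protein, differed by -0.60 (SE 0.27, adjusted p = 0.165) from 14 to 28 dpl. Prrg4, a transmembrane Gla protein, and Postn, a matrix protein, did not pass in any comparison. Postn went from 10.75 to 10.08 and 10.52. Without 28 dpl replicate 2, 2 of the 4 passed from 5 to 28 dpl, where 44.3% of all probes were called with all arrays.

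Toll-like receptor signalling is among the responses that TAM signalling dampens. The list of Toll-like receptors and early cytokines also holds genes that restrain inflammation, Tgfb1 and Nfkbia, so its counts mix both kinds. Nfkbia, named after its value had been seen, was among those that fell from 5 to 28 dpl (by 0.53, limma adjusted p = 0.0301). Of 15 measured members of 27, 7 fell from 5 to 14 dpl, 4 from 14 to 28 dpl and 10 over the whole interval, with a median of -0.67 over the interval. Over all probes 10.1%, 7.48% and 24.1% fell in these comparisons. In each comparison 0 rose, and 0 were higher at an unadjusted p under 0.05. The signalling proteins Traf6, Irak1 and Irak4 and the cytokines Il12a and Tgfb1, named after their values had been seen, passed in no comparison, with Traf6 at 0.03 (adjusted p = 0.758) and Tgfb1 at -0.33 (adjusted p = 0.102) from 5 to 28 dpl. Traf6 averaged 7.21, 7.20 and 7.24 at 5, 14 and 28 dpl, under the lowest background estimate, so its probe could not show a fall. Irak4, at 7.49, 7.42 and 7.38, lay little above the highest estimate. From 5 to 14 dpl, when Axl rose, the lipopolysaccharide co-receptor Cd14 fell by 1.96 (SE 0.24, adjusted p = 0.000865), the cytokine Il1a fell by 1.14 (SE 0.20, adjusted p = 0.0053) and the adaptor Myd88 fell by 0.72 (SE 0.13, adjusted p = 0.00529). Between 14 and 28 dpl, when Axl fell as well, Tlr2 fell by 0.94 (SE 0.18, adjusted p = 0.0116), Tlr6 fell by 0.79 (SE 0.12, adjusted p = 0.00418) and Tlr7 fell by 0.76 (SE 0.11, adjusted p = 0.00343). From 5 to 28 dpl Tlr2 fell by 1.81 (SE 0.18, adjusted p = 0.000116), Cd14 fell by 2.43 (SE 0.24, adjusted p = 9.97e-05) and Il1a fell by 1.86 (SE 0.20, adjusted p = 0.000174). The microglia and macrophage list, which shares Cd14 with this list, fell over the same interval, and the part of phagocyte number in these changes was not tested.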

How the data were processed

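Rat lesion RNA was measured on 9 Illumina arrays. Per the labels' protocols, cRNA was made with the Ambion TotalPrep kit. The authors' deposited normalized table holds log2 values of 10552 probes: sorted values of the arrays differ by at most 0.0017, as after quantile normalization, with a median of 8.31. The log2 scale was read from the values; no source used here states the transform or filter. The raw table, per the file headers, gives a detection p-value per target and array. It shares 0 identifiers with the normalized table, so only its detection p-values were used (detected at 0.01 or less). The background estimate assumes that the 10552 raw targets detected on at least 1 array are the probes of the normalized table; it was added after the data had been seen, as were the promoter motifs.

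Probes were named through the platform annotation (7679 with 1 symbol, 0 with several, 2873 unnamed here). Of the platform's gene identifiers 7670 were found in RefSeq (GRCr8). For genes with several probes the brightest was used, except that both Axl probes are given.

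Values were fitted with lmFit and eBayes of limma 3.58.1 under R 4.3.3, with a mean per time point and no block, over all probes. Arrays simulated for 14 against 5 dpl on 10552 probes recovered 94% of 100 probes changed by 1 (log2) and 78% of 100 changed by 0.5, with 11 false calls. The simulated noise was independent and drawn from limma's own fitted variances, with no array that stood apart. Far fewer probes were changed than were called in the data, so these shares need not hold for the data. The number of arrays limits the precision.

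Named genes are all member probes, the 3 of each pathway list with the smallest p per comparison, the 3 most like each member, and tissue checks. Members and lists were chosen with earlier results of these data known. Lists are described by counts, with no set test. Alternatives were array weights, a variance trend, other normalizations, filters on dim probes, only the time points compared, the replicate number as a block, robust eBayes and a background floor in the comparison of members (both added after the data had been seen) and leaving out each array. Arrays with the same replicate number correlated between -0.291 and 0.147 in their deviations over 9 pairs, so the numbers were not taken to pair them.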

Additional observations from a re-analysis of the deposited data

How the results depend on the processing

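Tyro3 kept its direction in all 18 alternatives of each comparison and its call in all of them from 5 to 14 and from 5 to 28 dpl. With 3 arrays per time point, the smaller changes of Axl, Mertk and Pros1 lay near the threshold, and Mertk at 28 dpl was no brighter than the highest background estimate. The number of member genes called (2, 3 and 2 in the order 14 against 5, 28 against 14 and 28 against 5 dpl) was 1 to 3, 1 to 3 and 1 to 2 when single arrays were left out, and 1 from 5 to 28 dpl among probes above background on all 9 arrays, a filter that removes Mertk.

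With the replicate number as a block, the fall of Axl from 14 to 28 dpl missed the threshold on both probes (adjusted p = 0.0554 and 0.0835), as did its rise on the second probe (0.0639), and no other call of a member changed. The block gave 3 genes of the shedding, carboxylation and signalling list from 5 to 14 dpl in place of 5, 500 probes lower at 28 than at 14 dpl in place of 789, and 0 of 6 pairs of members with unlike courses in place of 5 by the exact permutation test, where its smallest adjusted p was 0.0556 and 3 pairs had an unadjusted p of 0.0278, the smallest it allows. With medians in place of F 0 pairs passed, which was fixed in advance, since that statistic allows no p under 0.0714. Leaving out single arrays gave 4 to 6 pairs, and the background floor gave 5.

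From 14 to 28 dpl the shedding, carboxylation and signalling list had 2 calls in place of 1 with cyclic loess or only these time points fitted. Without single arrays this list had 3 to 7 calls from 5 to 14 dpl and 1 to 2 from 14 to 28 dpl, the uptake list 1 to 6 from 14 to 28 dpl, and the other Gla proteins 1 to 2 from 5 to 28 dpl. Probes called numbered 668 to 1227 higher and 617 to 1352 lower from 5 to 14 dpl, and 442 to 1082 higher and 389 to 968 lower from 14 to 28 dpl.

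The difference of Axl from 5 to 28 dpl turned sign around 0: 0.0065 on the brighter probe with cyclic loess, -0.0070 on the second with array weights, and -0.030 to 0.015 and -0.030 to 0.040 without single arrays. That of Prrg4 ran from -0.015 to 0.15. Of 646 values of the other named genes 631 kept direction and side of the threshold, 9 lost a call, 5 gained 1 and 1 turned. The cause was not tested. The raw table could not be run as a source, since its targets could not be matched to named probes.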
